A study of Mus musculus with 8 samples.

Results

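The matrix metalloproteinases (MMPs) and their tissue inhibitors (TIMPs) were followed in kidney RNA through 9 genes chosen by symbol, 6 proteases (Mmp2, Mmp3, Mmp7, Mmp9, Mmp12 and Mmp14) and 3 inhibitors (Timp1, Timp2 and Timp3), out of 20245 gene entries in each file. All 9 were present in every file. The samples were whole kidneys of C57BL/6 mice, 8 poly(A) RNA libraries in 4 groups of 2. WT_DMSO and WT_FP were wild-type kidneys given vehicle (DMSO) or flavopiridol (FP), and PKD_DMSO and PKD_FP were kidneys with autosomal dominant polycystic kidney disease given the same. Flavopiridol inhibits cyclin-dependent kinases, among them CDK9, the kinase of the elongation factor P-TEFb whose activation by cAMP signalling the study concerns. The sources used here name no mutated gene, Cre driver, dose, treatment length or animal age. Whether the 2 libraries of a group came from separate animals is not stated, so each p-value reflects only how far these libraries spread, which may be technical.

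MMPs are zinc-dependent proteases that are mostly secreted as inactive precursors and cut collagens, laminins, elastin and cell surface proteins once a propeptide is removed. TIMPs bind the active site of the mature enzymes, and each has further roles. Timp2 also takes part in the activation of pro-MMP2 by the membrane-anchored protease MT1-MMP, the product of Mmp14, and Timp3 stays bound to the extracellular matrix. Cyst growth and interstitial fibrosis remodel the basement membrane of the tubule, which is the setting in which these genes are studied in polycystic kidneys. RNA levels give neither the amount nor the activity of the proteins.

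Kidney markers were present in every library, with the summed level of 9 proximal tubule markers between 1996 and 31489 FPKM (fragments per kilobase of transcript, scaled to library size) per library. Male-specific Ddx3y was between 13.7 and 21.8 FPKM and Xist at most 0.13 FPKM in all 8 libraries. Marker sums set 3 libraries apart. WT_FP replicate 2 had 1611 FPKM summed over 8 adipocyte markers, against 113 to 367 FPKM in the other 7 libraries, and WT_DMSO replicate 2 had 158 FPKM summed over 12 fibroblast markers, the lowest of the 8. PKD_DMSO replicate 1 had 86.9 FPKM summed over 8 endothelial markers, against 249 to 534 FPKM in the other 7.

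The sequence upstream of the start was available from RefSeq (GRCm38.p6) for 7 of the 9 genes, all but Mmp2 and Mmp9. It is shown for the 3 proteases that share an element and, for comparison, for Timp1. The 250 bases before each annotated start were searched on both strands for 4 motifs that do not overlap one another here: TGACTCA (reverse complement TGAGTCA, the AP-1 element), TGACGTCA (the cAMP response element), CTTTGA (a core of the TCF/LEF site) and TATAAA. Matches are in capitals, 5′ to 3′ on the strand of the gene.
Mmp7, chr9:7691840-7692089, plus strand: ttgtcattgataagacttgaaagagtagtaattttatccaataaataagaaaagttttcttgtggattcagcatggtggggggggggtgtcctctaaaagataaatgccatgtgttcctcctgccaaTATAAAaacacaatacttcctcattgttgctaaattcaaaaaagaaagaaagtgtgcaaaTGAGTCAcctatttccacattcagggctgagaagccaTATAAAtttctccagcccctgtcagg
Mmp3, chr9:7445572-7445821, plus strand: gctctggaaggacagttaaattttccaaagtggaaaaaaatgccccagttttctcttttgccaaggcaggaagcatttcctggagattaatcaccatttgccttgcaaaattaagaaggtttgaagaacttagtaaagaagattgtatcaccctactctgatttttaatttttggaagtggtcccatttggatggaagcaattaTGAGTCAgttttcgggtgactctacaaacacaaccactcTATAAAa
Mmp12, chr9:7347124-7347373, plus strand, the second of its annotated starts: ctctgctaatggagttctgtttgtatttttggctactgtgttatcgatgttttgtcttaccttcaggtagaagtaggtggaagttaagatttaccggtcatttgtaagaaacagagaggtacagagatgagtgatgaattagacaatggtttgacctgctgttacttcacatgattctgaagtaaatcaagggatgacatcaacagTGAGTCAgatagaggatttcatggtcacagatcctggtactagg
Timp1, chrX:20869916-20870165, plus strand: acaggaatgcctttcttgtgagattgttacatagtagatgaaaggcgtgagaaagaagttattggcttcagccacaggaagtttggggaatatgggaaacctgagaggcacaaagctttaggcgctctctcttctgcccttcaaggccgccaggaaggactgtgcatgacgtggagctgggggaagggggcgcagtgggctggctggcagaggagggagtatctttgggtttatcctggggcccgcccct
The windows shown for Mmp7, Mmp3 and Mmp12 each held 1 copy of TGAGTCA close to the start, from 63 to 57 bases before it in Mmp7, 46 to 40 in Mmp3 and 44 to 38 in Mmp12. Mmp12 and Mmp7 each have a second window, and neither of those held TGAGTCA. That of Mmp12 lies before the start of the gene (chr9:7344147-7344396) and held none of the 4 motifs. Of 32851 promoter windows of this length, 4.46% held this element on either strand. The TATAAA motif was in the windows of Mmp7 and Mmp3, against 12.4% of all windows. TGACGTCA, held by 1.55% of all windows, was in none of the windows of these 7 genes, and Timp1, Timp2, Timp3 and Mmp14 held none of the 4 motifs. CTTTGA, in 13.8% of all windows, matched only in the window before an alternative start of Mmp7 (chr9:7692091-7692340). That window lies inside the annotated gene. Which start these kidneys used is not known from gene-level values, and a match of letters is not evidence of binding.

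In polycystic kidneys under vehicle, transcripts of the proteases Mmp7 and Mmp14 and of the inhibitor Timp1 were much higher than in wild-type kidneys, while Timp3, the most abundant of the 9, was slightly lower in level without passing the test. Differences below are on the log2(FPKM + 1) scale, from a limma model over all 8 libraries with Benjamini-Hochberg adjustment over 14391 genes and a threshold of 0.05. With 1 FPKM added, these differences understate the change of genes near 0. In this comparison 6 of the 9 genes were called higher and 0 lower, beside 22.3% of all genes tested called in either direction, 14.8% higher and 7.52% lower. Their median log2 fold change was 1.78, beside 0.12 for all genes tested. Mmp3, Mmp7, Mmp9 and Mmp12 reached 1 FPKM in no WT library and were tested only because of their PKD values, so this count and median do not stand as support. Because the RNA came from the whole organ, for each of these genes more or fewer cells of a type and more or less RNA per cell cannot be told apart.

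**Figure D1:**
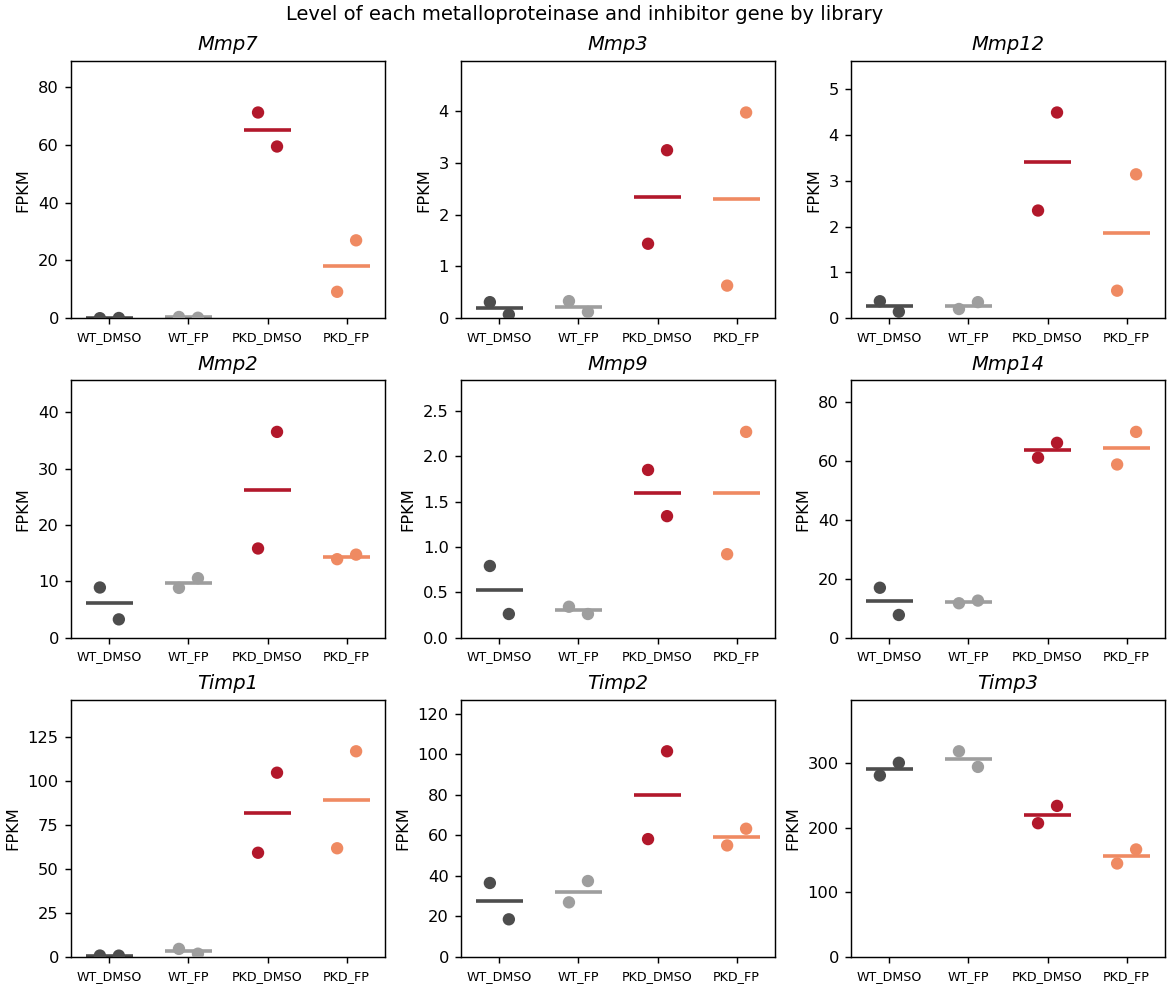
FPKM of the 9 genes (vertical axes, each from 0) in the 4 groups. Points are libraries, replicate 1 left and replicate 2 right, and horizontal lines are group means of 2. Mmp7, Mmp14 and Timp1 lie higher in all 4 PKD libraries than in all 4 WT libraries, Timp3 lies lower, and Mmp7 is lower in PKD_FP (9.14 and 26.98 FPKM) than in PKD_DMSO (71.29 and 59.5 FPKM).

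Mmp7 (matrilysin, a small epithelial protease that lacks the hemopexin domain; GRCm38 chromosome 9, 7692090 to 7699585) was close to absent in wild-type kidneys. Its level was 0 and 0.06 FPKM in the WT_DMSO libraries, 0.41 and 0.15 in WT_FP, 71.29 and 59.5 in PKD_DMSO and 9.14 and 26.98 in PKD_FP. Every PKD library was above every WT library, and each PKD_FP library was below each PKD_DMSO library. The log2 fold change between PKD_DMSO and WT_DMSO was 6.01 ± 0.44 (SE; n = 2 and 2; limma, adjusted p = 0.00159). It was 9.01 with 0.1 FPKM added in place of 1, so its size rests on the value added, and it passed in all 18 alternative analyses.

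Mmp14 (MT1-MMP, the membrane-anchored collagenase and activator of pro-MMP2; chromosome 14, 54431598 to 54442456) was expressed in every library. It stood at 16.9 and 7.66 FPKM in WT_DMSO, 11.64 and 12.54 in WT_FP, 61.03 and 66.08 in PKD_DMSO and 58.73 and 69.79 in PKD_FP. The 4 PKD libraries lay within a narrow band well above the WT libraries. It rose by 2.37 ± 0.32 under vehicle (limma, adjusted p = 0.00572). The call ended only without PKD_DMSO replicate 2 among 18 alternatives, with 2.32 and an adjusted p of 0.0513.

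Mmp2 (gelatinase A, made largely by stromal cells; chromosome 8, 92827290 to 92853421) was 8.89 and 3.23 FPKM in WT_DMSO, 8.82 and 10.55 in WT_FP, 15.82 and 36.53 in PKD_DMSO and 13.92 and 14.73 in PKD_FP. Its PKD libraries were all above its WT libraries, but PKD_DMSO replicate 2 was far above the other 3. It rose by 1.96 ± 0.48 under vehicle (limma, adjusted p = 0.031). That call ended without WT_DMSO replicate 2 (1.35), without PKD_DMSO replicate 2 (1.38), without either PKD_FP library (1.96), without WT_DMSO and WT_FP replicate 2 together (1.35), with the replicate block and in the fit of the groups compared alone (1.96 in both), and the adjusted p reached 0.172. The gelatinase Mmp9 (chromosome 2, 164940326 to 164955850), in contrast, stayed low: 0.79 and 0.26 FPKM in WT_DMSO, 0.34 and 0.26 in WT_FP, 1.85 and 1.34 in PKD_DMSO and 0.92 and 2.27 in PKD_FP. The groups of either genotype did not overlap, and its log2 fold change of 0.78 (95% interval 0.03 to 1.53) did not pass (limma, adjusted p = 0.118).

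Mmp12 (macrophage elastase; chromosome 9, 7344397 to 7360461) and Mmp3 (stromelysin-1; chromosome 9, 7445822 to 7455975) were low in all groups. Mmp12 was 0.37 and 0.14 FPKM in WT_DMSO, 0.2 and 0.35 in WT_FP, 2.35 and 4.49 in PKD_DMSO and 0.6 and 3.14 in PKD_FP. Under vehicle it was 1.78 ± 0.46 higher (limma, adjusted p = 0.0368). The call ended without any 1 of the 4 libraries compared (1.91 without WT_DMSO replicate 1, 1.65 without replicate 2, 2.14 without PKD_DMSO replicate 1, 1.42 without replicate 2), without either WT_FP library (1.78), without WT_DMSO and WT_FP replicate 2 together (1.65) and with no low-value filter (1.78). Mmp3 was 0.31 and 0.07 FPKM in WT_DMSO, 0.33 and 0.12 in WT_FP, 1.44 and 3.25 in PKD_DMSO and 0.63 and 3.98 in PKD_FP. Its PKD replicates differed from each other by more than 2 times in each treatment, and its log2 fold change of 1.44 (0.19 to 2.70) did not pass (limma, adjusted p = 0.0938). It passed in 3 of 17 alternatives, without PKD_FP replicate 1 (adjusted p = 0.0371), without PKD_FP replicate 2 (0.0376) and with the replicate block crossed (0.0394).

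Among the inhibitors, Timp1 (an inducible, secreted inhibitor of most soluble MMPs that also binds pro-MMP9; chromosome X, 20870166 to 20874737) showed the widest range. It was 0.8 and 0.75 FPKM in WT_DMSO, 4.57 and 1.85 in WT_FP, 59.23 and 104.73 in PKD_DMSO and 61.78 and 116.91 in PKD_FP. All PKD libraries exceeded all WT libraries by more than 10 times. It rose by 5.49 ± 0.44 under vehicle (limma, adjusted p = 0.00162), and the call held in all 18 alternatives, with 5.08 to 6.49.

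Timp2 (the constitutive inhibitor that also bridges MT1-MMP and pro-MMP2; chromosome 11, 118301061 to 118355411) was 36.48 and 18.56 FPKM in WT_DMSO, 26.93 and 37.45 in WT_FP, 58.13 and 101.45 in PKD_DMSO and 55.01 and 63.25 in PKD_FP. The genotypes did not overlap, and PKD_DMSO replicate 2 was again the highest. It rose by 1.52 ± 0.38 under vehicle (limma, adjusted p = 0.0328). The call ended without WT_DMSO replicate 2 (1.05), without PKD_DMSO replicate 2 (1.13), without WT_DMSO and WT_FP replicate 2 together (1.05), without either PKD_FP library (1.52) and with no low-value filter, the replicate block or the groups compared alone (1.52 in each).

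Timp3 (the matrix-bound inhibitor, which also blocks ADAM17 and ADAMTS proteases; chromosome 10, 86300412 to 86349505) went the other way in level. It was 280.97 and 300.6 FPKM in WT_DMSO, 318.43 and 294.23 in WT_FP, 207.04 and 233.88 in PKD_DMSO and 144.68 and 166.45 in PKD_FP. Every PKD library was below every WT library, and both PKD_FP libraries were below both PKD_DMSO libraries. Under vehicle its log2 fold change was −0.40 (−0.77 to −0.03) and did not pass (limma, adjusted p = 0.109). It was −0.55 after median-of-ratios scaling and −0.01 after quantile normalization, so the size of this difference depends on the scaling.

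**Figure D2:**
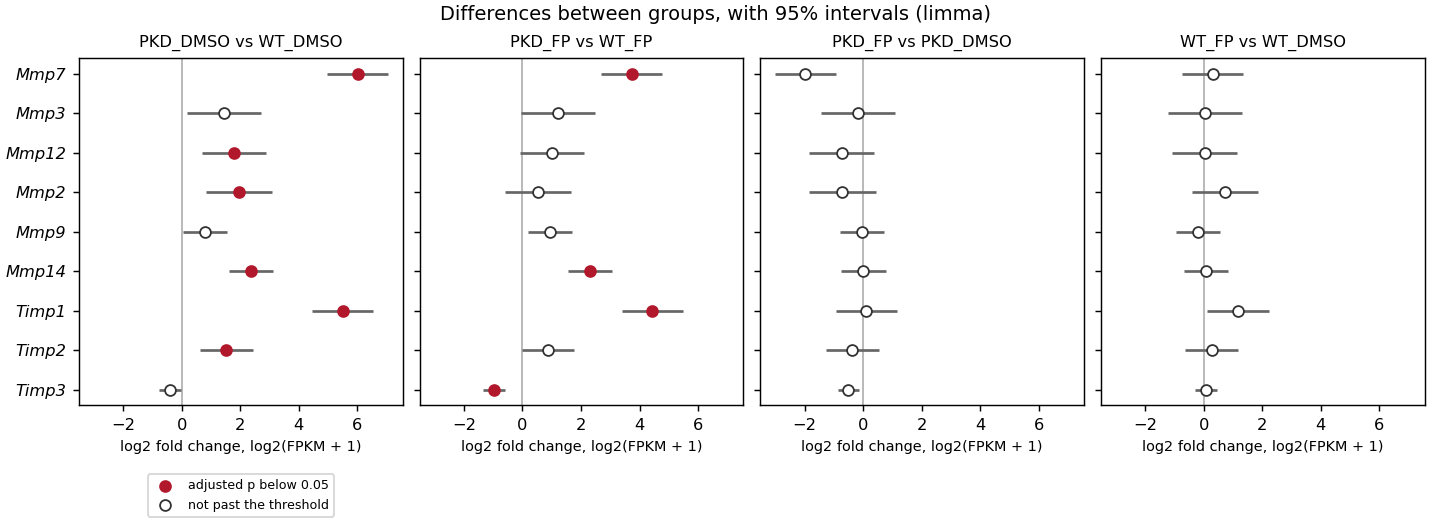
Log2 fold changes of the 9 genes (horizontal axes, log2(FPKM + 1) scale) in 4 comparisons, from limma over 8 libraries, with 95% intervals. Filled points passed an adjusted p of 0.05: 6 genes between PKD_DMSO and WT_DMSO, 4 between PKD_FP and WT_FP, and 0 in either comparison of flavopiridol with vehicle.

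FPKM is scaled to length, so if the inferred unit is right, levels can also be ordered between genes. The sums and ratios of different genes below rest on the same inference. By group mean in FPKM, the wild-type order under vehicle was Timp3, Timp2, Mmp14 and Mmp2 (290.8, 27.5, 12.3 and 6.06), with the other 5 genes below 1. Timp2 and Mmp14 did not overlap in either wild-type group, while the WT_DMSO ranges of Mmp14 and Mmp2 did. Within each WT_DMSO library, however, Mmp14 was above Mmp2 (16.9 against 8.89 and 7.66 against 3.23 FPKM). In PKD_DMSO the order was Timp3, Timp1, Timp2, Mmp7, Mmp14, Mmp2, Mmp12, Mmp3 and Mmp9 (220, 82, 79.8, 65.4, 63.6, 26.2, 3.42, 2.35 and 1.6). The ranges of Timp1, Timp2, Mmp7 and Mmp14 overlapped one another. Within libraries Timp1 was slightly above Timp2 in both (59.23 against 58.13 and 104.73 against 101.45 FPKM). Every other pair of these genes changed order between the libraries, so their order is not resolved. Mmp12 overlapped Mmp3 in range but was above it within both libraries (2.35 against 1.44 and 4.49 against 3.25 FPKM). Mmp3 overlapped Mmp9, and their order changed between the libraries.

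Comparing the genotypes under flavopiridol asks whether the disease difference was also present in treated kidneys. It was for Mmp7, Mmp14 and Timp1, and Timp3 was then called lower. Between PKD_FP and WT_FP 3 of the 9 genes were called higher and 1 lower, beside 13.9% of all genes tested called (8.71% higher and 5.23% lower). As under vehicle, Mmp3, Mmp7, Mmp9 and Mmp12 were tested only because of their PKD values, so this count does not stand as support. Mmp7 rose by 3.73 ± 0.44 (limma, adjusted p = 0.00746), Timp1 by 4.43 ± 0.44 (adjusted p = 0.00492) and Mmp14 by 2.31 ± 0.32 (adjusted p = 0.0107). Timp3 fell by 0.98 ± 0.16 on the log2 scale (limma, adjusted p = 0.0149), and its fold change kept its sign and lay between −1.08 and −0.87 in 18 alternatives. The calls of Mmp14 and Timp3 ended without WT_FP replicate 1 (2.26 and −0.92), without PKD_FP replicate 1 (2.44 and −0.87) and without PKD_FP replicate 2 (2.19 and −1.08), which left 2 genes called in each of those fits. That of Timp3 also ended without WT_DMSO and WT_FP replicate 2 together (−1.03, limma, adjusted p = 0.0507).

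The remaining 5 genes did not pass between PKD_FP and WT_FP. Mmp2 stood at 0.52 (95% interval −0.61 to 1.66; limma, adjusted p = 0.499) and Timp2 at 0.87 (−0.03 to 1.77; adjusted p = 0.171). Mmp12 stood at 1.02, Mmp3 at 1.22 and Mmp9 at 0.95, with adjusted p of 0.187, 0.17 and 0.0931. Each of these genes had all PKD_FP values above all WT_FP values. The share of all genes without such overlap was not counted, so this does not stand as support. The gap was narrow for Mmp2, with 13.92 FPKM as the lower PKD_FP value and 10.55 as the higher WT_FP value. Both genotype comparisons have libraries of their own, and the difference between them is the interaction tested below.

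Comparing flavopiridol with vehicle in polycystic kidneys asks whether the drug moved these transcripts in diseased tissue. Mmp7 and Timp3 were lower in level in both treated libraries, and none of the 9 passed. By limma with Benjamini-Hochberg adjustment 0 of the 9 genes were called, beside 0.0139% of all genes tested (0.00695% higher and 0.00695% lower). At an unadjusted p under 0.05 there were 2 of 9, Mmp7 and Timp3, beside 19.5% of all genes tested, a share of the members near that background. Mmp7 averaged 18.1 ± 12.6 FPKM (SD, n = 2) in PKD_FP and 65.4 ± 8.34 in PKD_DMSO, which is −1.97 on the log2 scale (95% interval −3.01 to −0.94; limma, adjusted p = 0.125). Without PKD_FP replicate 1 it was −1.24, and without PKD_FP replicate 2 it was −2.71, with an adjusted p of 0.0619 to 0.525 over all alternatives. For Timp3 the group means were 156 ± 15.4 and 220 ± 19 FPKM, and the log2 difference was −0.50 (−0.87 to −0.13; limma, adjusted p = 0.169).

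The other 7 genes had intervals that included 0 in this comparison. Mmp14 was at 0.01 (−0.74 to 0.77), an interval within 1 unit of log2(FPKM + 1) on either side of 0, and it became −0.06 after median-of-ratios scaling and −0.04 after quantile normalization. Timp1 was at 0.11 (−0.94 to 1.15). Mmp2 was at −0.71 (−1.85 to 0.42), although its 2 treated libraries were below its 2 vehicle libraries. Mmp12 was at −0.74, Timp2 at −0.38, Mmp3 at −0.18 and Mmp9 at −0.04, and the groups overlapped for each.

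In wild-type kidneys flavopiridol left most of the 9 genes at levels that overlapped those under vehicle. By limma 0 of 9 were called, beside 0% of all genes tested, and 1 of 9 had an unadjusted p under 0.05, beside 1.27% of all genes tested. That gene was Timp1, with 4.57 and 1.85 FPKM in WT_FP against 0.8 and 0.75 in WT_DMSO, or 1.17 on the log2 scale (0.12 to 2.21; limma, adjusted p = 1). Mmp7 was also higher in both WT_FP libraries, by less than 0.5 FPKM. The other 7 genes lay between −0.21 (Mmp9) and 0.72 (Mmp2), with overlapping groups. Without WT_DMSO replicate 2, Mmp14 was at −0.45 in this comparison in place of 0.07, and Timp2 at −0.19 in place of 0.28.

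Whether the drug response differed between genotypes was tested as an interaction. None of the 9 genes passed in limma, beside 0% of all genes tested. At an unadjusted p under 0.05 there were 2 of 9, beside 11.2% of all genes tested. Mmp7 had −2.28 ± 0.62 (unadjusted p = 0.00803, adjusted p = 0.384) and Timp3 had −0.58 ± 0.22 (unadjusted p = 0.0352, adjusted p = 0.426). For the comparisons of 2 libraries against 2 above, the smallest two-sided p that permuting labels allows is 0.333. That value does not apply to the interaction, which uses all 4 groups.

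The balance of proteases to inhibitors was described per library as the summed FPKM of the 6 Mmp genes over that of the 3 Timp genes, with no test. The Mmp sum was 27.3 and 11.4 FPKM in WT_DMSO, 21.7 and 24 in WT_FP, 153.8 and 171.2 in PKD_DMSO and 83.9 and 120.9 in PKD_FP. The Timp sum was 318 and 320 FPKM in WT_DMSO, 350 and 334 in WT_FP, 324 and 440 in PKD_DMSO and 261 and 347 in PKD_FP. So the protease sum separated the genotypes in every library while the inhibitor sum overlapped between them. Per 100 FPKM of Timp there were 8.57 and 3.57 FPKM of Mmp in WT_DMSO, 6.21 and 7.19 in WT_FP, 47.4 and 38.9 in PKD_DMSO and 32.1 and 34.9 in PKD_FP.

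On the log2 scale this balance was higher by 2.96 in PKD_DMSO than in WT_DMSO (means −1.22 ± 0.20 and −4.18 ± 0.89, SD, n = 2) and by 2.32 in PKD_FP than in WT_FP (−1.58 ± 0.08 and −3.90 ± 0.15). Between PKD_FP and PKD_DMSO it differed by −0.36, with groups that did not overlap, and between WT_FP and WT_DMSO by 0.27, with groups that did. The choice of genes moved these values. Without Timp3 the genotype difference was 0.67 under vehicle and 0.10 under flavopiridol, and as a mean of log2 values over genes it was 0.19 and 0.18. Without Mmp7 it was 2.20 and 2.08, and the difference between PKD_FP and PKD_DMSO became 0.13.

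**Figure D3:**
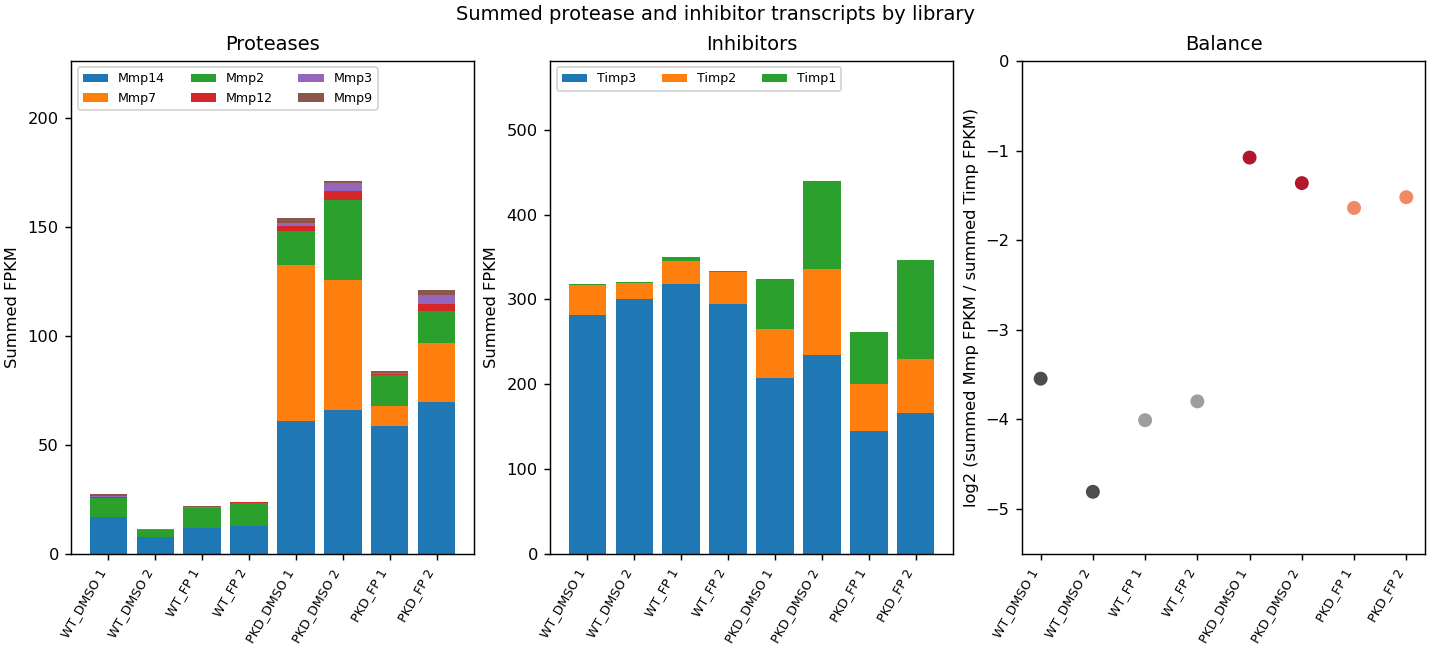
Summed FPKM of the 6 Mmp genes (left) and the 3 Timp genes (middle) by library, stacked by gene, and the log2 ratio of the sums (right). The ratio lies between −4.81 and −3.55 in the WT libraries and between −1.64 and −1.08 in the PKD libraries, and Timp3 makes up most of the inhibitor sum in WT.

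The make-up of both sums differed between genotypes. Timp3 held 88.2% to 94% of the Timp sum in the 4 WT libraries, 63.8% and 53.1% in PKD_DMSO and 55.3% and 48% in PKD_FP. Timp1 held at most 1.31% in WT, 18.3% and 23.8% in PKD_DMSO and 23.6% and 33.7% in PKD_FP. Among the proteases, Mmp7 held at most 1.89% of the Mmp sum in WT, 46.4% and 34.8% in PKD_DMSO and 10.9% and 22.3% in PKD_FP. Mmp14 held 52.3% to 67.1% in WT, 39.7% and 38.6% in PKD_DMSO and 70% and 57.7% in PKD_FP.

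Ratios of partner genes were also taken per library. The ratio of Mmp14 to Timp2, the activator of pro-MMP2 and its bridging inhibitor, was 0.463 and 0.413 in WT_DMSO, 0.432 and 0.335 in WT_FP, 1.05 and 0.651 in PKD_DMSO and 1.07 and 1.10 in PKD_FP, with no overlap between genotypes. The ratio of Mmp2 to Timp2 ranged from 0.174 to 0.328 in WT and from 0.233 to 0.36 in PKD libraries, which overlapped. The ratio of Mmp7 to Timp1 was 1.20 and 0.568 in PKD_DMSO and 0.148 and 0.231 in PKD_FP, while in WT both genes were too low for the ratio to be read, as were Mmp9 and Timp1 for theirs.

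Markers of other cell types also differed between the groups, and in some groups their replicates differed in the same direction as several of these genes. All 12 fibroblast and myofibroblast markers were above 0 in every library, and their summed level was 158 to 380 FPKM in WT_DMSO, 289 to 421 in WT_FP, 635 to 1302 in PKD_DMSO and 947 to 1673 in PKD_FP. Of 11 tested, 5 were called higher between PKD_DMSO and WT_DMSO, with a median of 1.45. Beside this list and the marker lists below, 14.8% of all genes tested were called higher and 7.52% lower, with a median of 0.12. Between PKD_FP and WT_FP these shares were 8.71% and 5.23%. Within WT_DMSO, replicate 2 was lower than replicate 1 in this sum (158 against 380), in Mmp2 (3.23 against 8.89), in Mmp14 (7.66 against 16.9) and in Timp2 (18.56 against 36.48). Within PKD_DMSO, replicate 2 was higher in this sum (1302 against 635), in Mmp2 and in Timp2, but Mmp14 differed little. Within PKD_FP, replicate 2 was also higher in this sum (1673 against 947). There Mmp2 (14.73 against 13.92) and Timp2 (63.25 against 55.01) differed less than in PKD_DMSO. Mean Mmp2 was 14.3 FPKM in PKD_FP and 26.2 in PKD_DMSO, while the ranges of this sum overlapped. WT_DMSO replicate 2 was also below replicate 1 in the endothelial (249 against 497) and macrophage (70.6 against 115) sums, so its low values are not particular to fibroblast markers. Thy1 (called in all 18 alternatives) rose by 3.12 ± 0.40, Col1a1 by 2.20 ± 0.50, Acta2 by 2.53 ± 0.58 and Col3a1 by 2.26 ± 0.61 (limma, adjusted p = 0.00533, 0.0251, 0.0262 and 0.0413), and the last 3 calls ended when WT_DMSO replicate 2 was left out (1.46, 2.01 and 1.56), as they did without PKD_DMSO replicate 2 (1.89, 1.91 and 1.69). All 3 also ended without WT_DMSO and WT_FP replicate 2 together (1.46, 2.01 and 1.56). Col1a1 (2.51) and Col3a1 (2.83) also lost theirs without PKD_DMSO replicate 1, and in the fit of the groups compared alone (2.20 and 2.26). The call of Col3a1 further ended without either WT_FP library, with no low-value filter and with the replicate block (2.26 in each).

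Macrophage markers, of which none was at 0 in any library, summed to 70.6 to 115 FPKM in WT_DMSO, 114 to 132 in WT_FP, 668 to 1213 in PKD_DMSO and 648 to 898 in PKD_FP. Of 13 tested, 12 were called higher between PKD_DMSO and WT_DMSO, with a median of 2.84, and 12 between PKD_FP and WT_FP. Some genes of this list and of the lists below, among them Trem2, Cd44, Adam8 and Adamts4, reached 1 FPKM in no WT library. They were tested only because of their PKD values, so counts and medians that include such genes do not stand as support. Lyz2, Fcgr3, Trem2 and C1qa passed in all 18 alternatives, with log2 fold changes of 4.60 ± 0.40, 3.77 ± 0.34, 3.59 ± 0.33 and 2.84 ± 0.35 (limma, adjusted p = 0.00196, 0.00201, 0.00208 and 0.00463). The part that macrophages had in the level of Mmp12, a gene known for its expression in these cells, was not tested.

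Injured tubule markers (10 of 10 called higher, median 2.32) summed to 667 to 674 FPKM in WT_DMSO, 716 to 834 in WT_FP, 4058 to 5093 in PKD_DMSO and 3332 to 3665 in PKD_FP. Havcr1 (6.63 ± 0.56), Lcn2, Krt8 (1.92 ± 0.17) and Sox9 (2.16 ± 0.28) passed in all 18 alternatives (limma, adjusted p = 0.00186, 0.000958, 0.00201 and 0.00539). The part that injured tubule cells had in the level of Mmp7, known as an epithelial gene of injured kidney, was not tested. Proximal tubule markers had 6 of 9 called lower (median −2.43), distal tubule and collecting duct markers 4 of 10 lower (median −0.95), podocyte markers 2 of 5 lower (median −0.93) and endothelial markers 0 of 8 (median −0.60). Neutrophil markers had 0 of 6 called (median 0.82), the neutrophil granule genes Mpo and Elane were at most 0.07 and 0.14 FPKM in any library, and the summed level was 10.5 to 22.1 FPKM in WT_DMSO, 13.8 to 23.3 in WT_FP, 11.5 to 66.3 in PKD_DMSO and 24.6 to 91.7 in PKD_FP. S100a8 and S100a9 encode calprotectin, made by neutrophils and other myeloid cells. S100a8 was 0.36 to 1.36 FPKM in WT, 21.23 and 2.26 in PKD_DMSO and 5.2 and 30.71 in PKD_FP. S100a9 was 0.51 to 1.67 FPKM in WT, 30.29 and 2.26 in PKD_DMSO and 8.85 and 37.15 in PKD_FP. Every PKD library was above every WT library for both genes, the PKD replicates differed widely, and neither gene passed (limma, adjusted p = 0.171 and 0.121 under vehicle, 0.099 and 0.0893 under flavopiridol). The rest of the list was mixed. Csf3r and Retnlg had higher group means in PKD_DMSO than in WT_DMSO. Ly6g (1.585 against 2.395 FPKM) and Cxcr2 (4.995 against 11.155 FPKM) had lower ones, with overlapping groups. Under flavopiridol Ly6g was 0.44 and 0.5 FPKM in PKD_FP against 4.47 and 1.38 in WT_FP. The part that neutrophils had in the level of Mmp9, also a neutrophil gene, was not tested. Adipocyte markers had 0 of 7 called, with a median of 2.14. Cfd was 41.51 and 46.65 FPKM in PKD_DMSO against 3.27 and 1.27 in WT_DMSO. Adipoq, Retn, Cidec and Plin1 were also higher in both PKD_DMSO libraries than in both WT_DMSO libraries. Fabp4, most of the sum in every library, and Ucp1 overlapped between these groups. Under flavopiridol Cfd was 3.78 and 35.42 FPKM in PKD_FP against 2.44 and 230.25 in WT_FP. The high sum of WT_FP replicate 2 went with 3.68 FPKM of Timp4 there against at most 0.47 elsewhere.

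**Figure D4:**
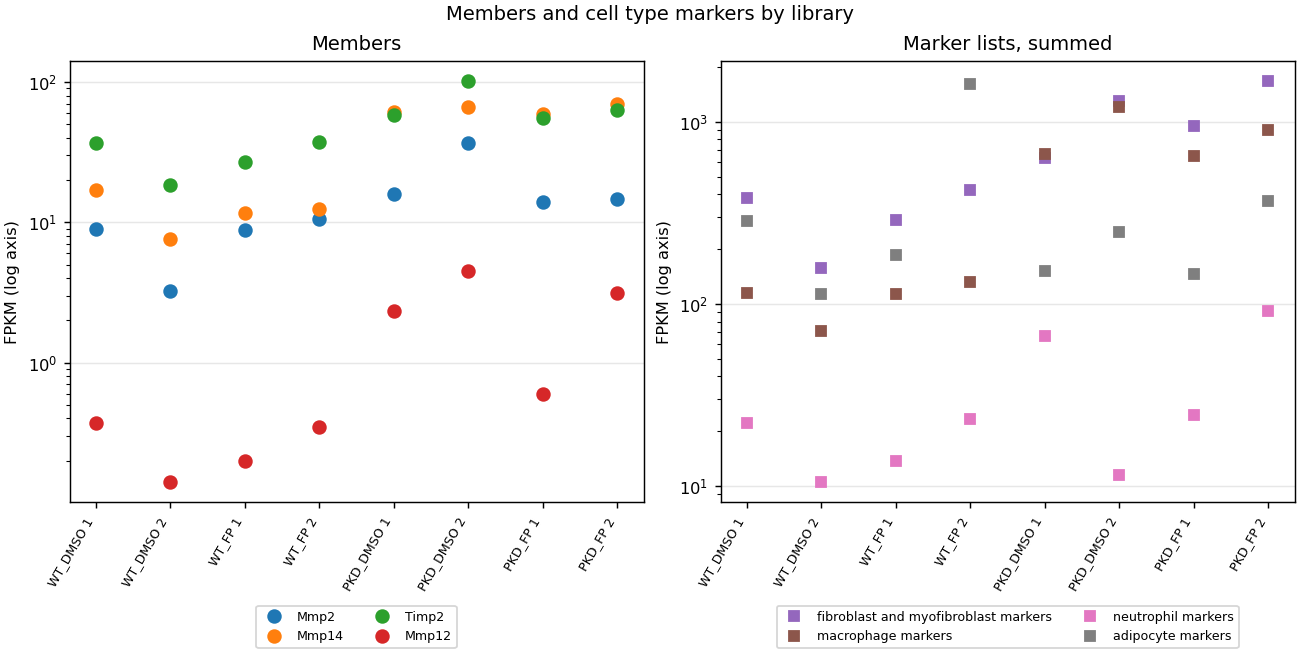
FPKM of Mmp2, Mmp14, Timp2 and Mmp12 (left) and of 4 summed marker lists (right) by library, on log axes. WT_DMSO replicate 2 is lowest for the 4 genes and for the fibroblast, macrophage and neutrophil sums, and WT_FP replicate 2 is highest for the adipocyte sum (1611 FPKM).

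The other MMP genes were mostly low. Of 16 in the files 7 were tested, and between PKD_DMSO and WT_DMSO 1 was called higher and 0 lower, with a median of 0.51. For this list and the related ones below, the shares among all genes tested were 14.8% higher and 7.52% lower under vehicle and 8.71% higher and 5.23% lower under flavopiridol, and 1 of 7 is near that background. The gene called was Mmp15 (MT2-MMP, a second membrane-anchored protease), with 1.59 and 1.09 FPKM in WT_DMSO and 7.81 and 4.17 in PKD_DMSO, a rise of 1.54 ± 0.33 (limma, adjusted p = 0.0223). The call ended without WT_DMSO and WT_FP replicate 2 together (1.38) and without any 1 of the 4 libraries compared, with 1.69 and 1.38 without WT_DMSO replicates 1 and 2, and 1.15 and 1.92 without PKD_DMSO replicates 1 and 2. Mmp23 was the most abundant of these genes, with 4.18 to 11.51 FPKM in WT and 16 to 20.31 FPKM in PKD libraries, and it did not pass (1.22 ± 0.38; limma, adjusted p = 0.0625). Mmp13 (collagenase-3) was 0.87 to 1.78 FPKM in WT and 0.3 to 0.5 FPKM in PKD libraries, without passing (−0.79 ± 0.24; adjusted p = 0.0576). Mmp8 and Mmp10, the neutrophil collagenase and stromelysin-2, were at most 0.83 and 0.07 FPKM. Mmp23 and these 3 were chosen after their values were seen. Under flavopiridol 0 of these 7 were called between genotypes.

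Regulators of MMPs other than the TIMPs had 4 of 10 tested members called higher and 1 lower under vehicle, with a median of 0.79, and 3 higher between PKD_FP and WT_FP. Lcn2 is listed here because its human product NGAL binds MMP9. Its level was 9.06 and 6.44 FPKM in WT_DMSO and 1125 and 740.8 in PKD_DMSO, a rise of 6.72 ± 0.32 (limma, adjusted p = 0.000958). The hyaluronan receptor gene Cd44, which docks MMPs at the cell surface, rose by 2.74 ± 0.33, and the thrombospondin genes Thbs1 and Thbs2 rose by 2.84 ± 0.35 and 1.96 ± 0.40. The call of Thbs2 ended without WT_DMSO replicate 2, alone or together with WT_FP replicate 2 (1.66 in both). It also ended without PKD_DMSO replicate 2 (1.48), and the other 3 passed in all 18 alternatives. Bsg, encoding the MMP inducer basigin, was the gene called lower, at −0.58 ± 0.15 (limma, adjusted p = 0.0389). It was named after its values were seen, and its call ended without any 1 of the 8 libraries (−0.70 to −0.47), with the replicate block, in the fit of the groups compared alone (−0.58 in both) and with values rescaled by median of ratios (−0.73) or by quantiles (−0.21). The call of Bsg also ended without WT_DMSO and WT_FP replicate 2 together (−0.52). Reck, a membrane-anchored MMP inhibitor, did not pass, with 1.61 to 3.64 FPKM in WT and 1.51 to 4.19 in PKD libraries.

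The plasminogen system, which supplies plasmin for the activation of pro-MMPs, had 6 of 12 tested genes called higher and 3 lower under vehicle (median 0.90), and 5 higher and 1 lower under flavopiridol. Plaur, the urokinase receptor gene, rose by 2.58 ± 0.42 and Plau, encoding urokinase, by 1.49 ± 0.24 (limma, adjusted p = 0.00976 and 0.00986). Klkb1, encoding plasma prekallikrein, changed by −1.19 ± 0.20 (limma, adjusted p = 0.0109). The call of Plaur ended without PKD_DMSO replicate 2 (2.79), that of Plau without WT_DMSO and WT_FP replicate 2 together (1.40), and that of Klkb1 without WT_DMSO replicate 1 (−1.05) and without PKD_DMSO replicate 2 (−1.16). Plg, which encodes plasminogen, was at most 0.13 FPKM in any library.

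The ADAM family, which includes proteases that shed cell surface proteins, had 4 of 10 tested genes higher and 0 lower under vehicle (median 0.88) and 3 higher under flavopiridol. Adam8 rose by 2.29 ± 0.24 (limma, adjusted p = 0.00307), from 0.7 and 0.36 FPKM to 7.71 and 5.35 FPKM, and passed in all 18 alternatives. Adam10, Adam19 and Adam9 rose by 1.03 ± 0.20, 1.51 ± 0.31 and 1.04 ± 0.26. Their calls ended in 5, 4 and 9 of 18 alternatives, among them those without PKD_DMSO replicate 2 (1.02, 1.09 and 0.82). ADAMTS proteases, which cut proteoglycans and procollagens, had 3 of 12 tested genes higher and 1 lower (median 0.28), and 3 higher under flavopiridol, beside the same 14.8% and 7.52% of all genes under vehicle and 8.71% under flavopiridol. Adamts1 was 6.72 and 6.92 FPKM in WT_DMSO, 47.16 and 46.94 in PKD_DMSO and 31.06 and 24.8 in PKD_FP, a rise of 2.62 ± 0.22 under vehicle (limma, adjusted p = 0.00186) that held in all 18 alternatives. Adamts4 and Adamts2 rose by 1.34 ± 0.27 and 2.14 ± 0.48, and Adamts15 changed by −0.94 ± 0.25. These 3 calls ended when WT_DMSO replicate 2 was left out (1.34, 1.60 and −0.81), as they did without PKD_DMSO replicate 2 (0.99, 1.65 and −1.21). All 3 also ended in the fit of the groups compared alone (1.34, 2.14 and −0.94) and without WT_DMSO and WT_FP replicate 2 together (1.34, 1.60 and −0.81). That of Adamts4 also ended without WT_DMSO replicate 1 (1.34), and that of Adamts15 without WT_DMSO replicate 1 (−1.07) and PKD_DMSO replicate 1 (−0.67). Adamts15 further lost its call without either PKD_FP library, with no low-value filter and with the replicate block (−0.94 in each).

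**Figure D5:**
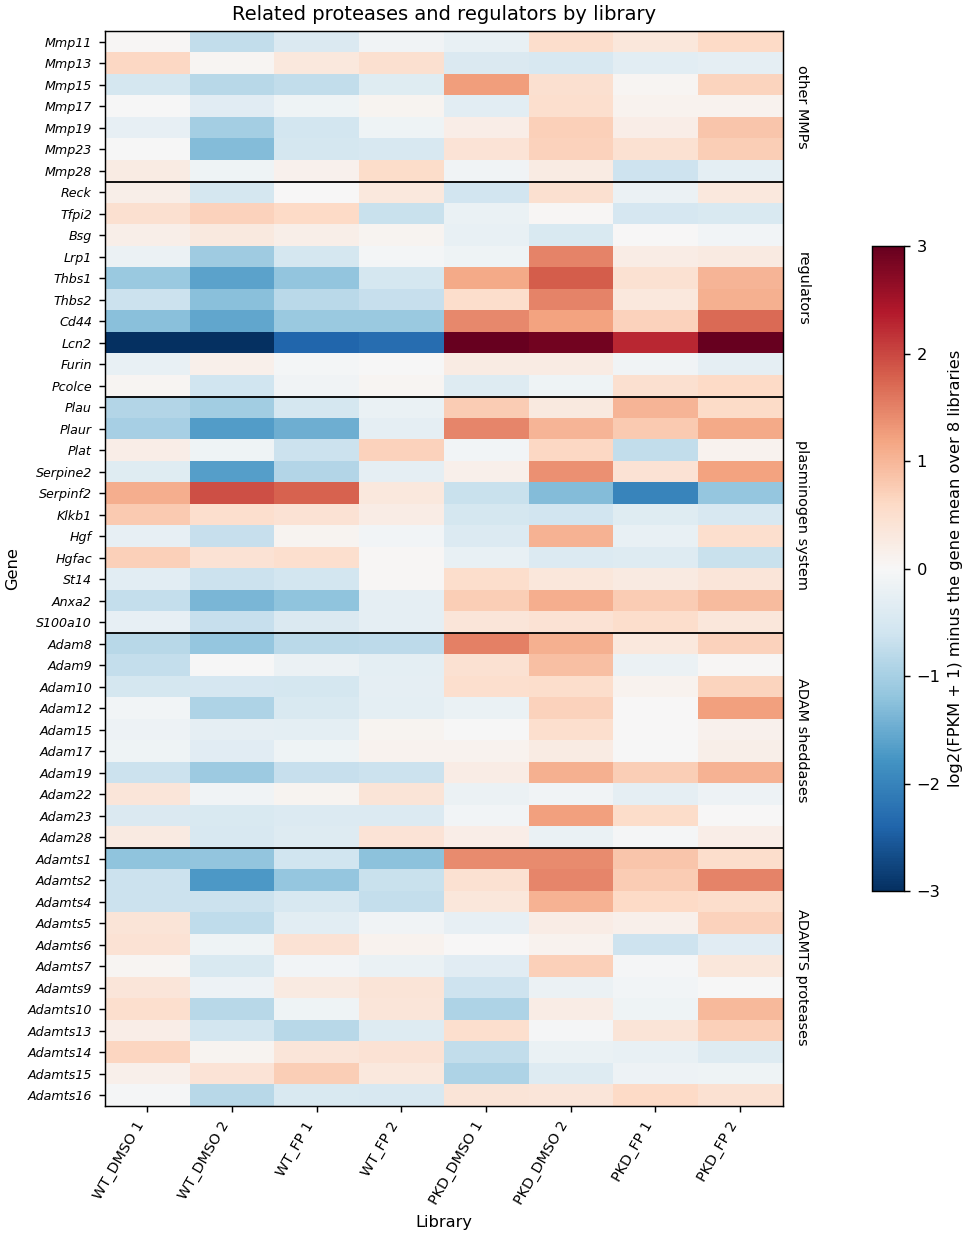
Log2(FPKM + 1) of tested genes of 5 related lists (rows) in the 8 libraries (columns), each gene minus its mean over libraries; values past 3 in either direction take the end colour. Lcn2 shows a wide contrast between WT and PKD libraries, and Serpinf2, Klkb1 and Mmp13 are lower in PKD than in WT libraries.

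Matrix genes whose products these proteases cut had 7 of 20 tested members higher and 0 lower under vehicle (median 1.04), and 4 higher and 2 lower under flavopiridol. Spp1, encoding osteopontin, rose with a ratio of group mean FPKM of 8.02 (limma, adjusted p = 0.00154). The laminin gene Lamb1 rose by 1.20 ± 0.16 and the fibronectin gene Fn1 by 2.48 ± 0.48 on the log2 scale (limma, adjusted p = 0.0055 and 0.0164). Spp1 and Lamb1 passed in all 18 alternatives. The call of Fn1 ended without WT_DMSO replicate 2, alone or together with WT_FP replicate 2 (2.05 in both), and without PKD_DMSO replicate 2 (1.75). In all of these lists, 0 tested genes were called between PKD_FP and PKD_DMSO or between WT_FP and WT_DMSO.

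The genes most like 4 of the members in their pattern over the 8 libraries were ranked by the root-mean-square difference of log2(FPKM + 1), each gene centred on its mean, among 13234 genes. For Mmp7 they included the complement gene C3 (0.64) and Serpina10 (0.76). For Timp1 they were Serpina10 (0.45), the tubule injury gene Havcr1 (0.58) and Ankrd1 (0.63), a target gene of the effector YAP. For Mmp14 they were Pdlim7 (0.17), Dpysl3 (0.18) and Pdpn (0.19), and for Timp3 they were Mat2a (0.10), Pdha1 (0.11) and Wnk1 (0.11). C3 resembled Mmp7 in its group means, 3.04 FPKM in WT_DMSO, 6.08 in WT_FP, 182.7 in PKD_DMSO and 35.2 in PKD_FP. The smaller differences for Mmp14 and Timp3 go with a narrower range of these genes and cannot be set against those of Mmp7 and Timp1.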

How the data were processed

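Values for 8 kidney libraries were deposited as FPKM with 2 decimals. The headers name no unit, and FPKM was inferred from the deposited values. Bowtie2, DESeq2 and mm10 are listed, per the submitters' processing notes, with no role stated, and no source used here gives the counter or annotation. Read totals, and so the depth behind each value, are unknown. The commonest ratio of the low values of genes above 0 in at most 5 libraries gave an estimate of depth relative to WT_DMSO replicate 1 of 1 to 1.29, from 7 to 15 genes per library.

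The filter kept 14391 genes that reached 1 FPKM in 2 or more libraries, after leaving out 4 entries with a repeated symbol and 1 with a dash. Log2(FPKM + 1) was fitted with limma 3.58.1 in R 4.3.3, with 1 mean per group over 8 libraries and trend and robust moderation. P-values are two-sided with Benjamini-Hochberg adjustment over all genes. The fit was tested on simulated data. The members, gene lists and tests were chosen with earlier results of these data known. Genes were named by a rule: all members, up to 4 genes per list with the smallest p among those called between PKD_DMSO and WT_DMSO, and 3 nearest patterns for 4 members, leaving out predicted genes and small RNAs. The rule also allows list genes at or near 0 (Plg, Mpo, Elane). Reck, Timp4, S100a8, S100a9, Csf3r, Retnlg, Ly6g, Cxcr2 and the named adipocyte markers fall outside it and were chosen after their values were seen. The same holds for Bsg and the other MMP genes that did not pass. A gene that this rule also names is not reported here. Positions and upstream sequences are RefSeq's (GRCm38.p6). Alternatives were other filters, pseudocount, scaling, moderation, the replicate block, the groups compared alone and each library left out. Those added after seeing the data were the block with WT_DMSO numbers crossed and leaving out WT_DMSO and WT_FP replicate 2 together.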

Additional observations from a re-analysis of the deposited data

Results flagged for a closer look

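Mmp7 was singled out because flavopiridol went with opposite differences in the 2 genotypes, without overlap between the groups in either. It was higher in both WT_FP libraries (0.41 and 0.15 FPKM) than in both WT_DMSO libraries (0 and 0.06 FPKM). These values lie near the floor, and the wild-type difference of 0.31 ± 0.44 (SE; limma, unadjusted p = 0.505) cannot be told from none. Mmp7 was lower in both PKD_FP libraries (9.14 and 26.98 FPKM) than in both PKD_DMSO libraries (71.29 and 59.5 FPKM). The share of all genes with such opposite differences was not counted, so the pattern does not stand as support for a reversed drug response. The difference between the drug effects, tested as an interaction in limma, was −2.28 on the log2 scale and did not pass after adjustment (adjusted p = 0.384, and 0.198 to 0.877 over the alternatives).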

How the results depend on the processing

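Of the 9 genes, the number called between PKD_DMSO and WT_DMSO was 6, and 2 to 5 when 1 library was left out, with 2 without PKD_DMSO replicate 2 and 3 without WT_DMSO replicate 2. It was also 3 without WT_DMSO and WT_FP replicate 2 together, a setting chosen after seeing the data. Between PKD_FP and WT_FP it was 4, and 2 to 4 when 1 library was left out. The other 3 comparisons had 0 in every setting, and Mmp7 and Timp1 passed in all 18 alternatives of both genotype comparisons. All genes called numbered 3212 between PKD_DMSO and WT_DMSO (1968 to 5079 in other settings, 489 to 2836 with 1 library left out) and 2007 between PKD_FP and WT_FP (875 to 3682, and 187 to 1854). With 1 library left out, its group's lone library is assumed to vary like the others. The cause of these shifts was not tested, beyond the loss of samples itself.

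Replicate numbers do not pair samples in the labels, and deviations of same-numbered libraries correlated between −0.515 and 0.485 across genes. With the replicate block, 4 of the 9 genes were called between PKD_DMSO and WT_DMSO and 4 between PKD_FP and WT_FP. With the WT_DMSO numbers crossed in the block, chosen after seeing the data, the counts were 7 and 5. The interaction could not be fitted with the groups compared alone, and the stricter low-value filter left Mmp3, Mmp9 and Mmp12 untested.

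The difference in the log2 balance between PKD_DMSO and WT_DMSO (2.96) was 0.19 as a mean of log2 values, 2.25 over all Mmp and Timp genes, 0.67 without Timp3 and 2.20 without Mmp7. Between PKD_FP and WT_FP (2.32) these were 0.18, 1.86, 0.10 and 2.08. Between PKD_FP and PKD_DMSO (−0.36) it was −0.21 over all Mmp and Timp genes, −0.59 without Timp3 and 0.13 without Mmp7.

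Every log2 fold change that turned sign was one outside the threshold. With median-of-ratios scaling, Mmp14 was at −0.058 between PKD_FP and PKD_DMSO and −0.0374 between WT_FP and WT_DMSO, and Timp3 at −0.047 in the latter. After quantile normalization, Mmp14 was at −0.0368, −0.0483 and, as an interaction, 0.0115, and between WT_FP and WT_DMSO Mmp3 was at −0.0128 and Mmp12 at −0.0585. Without both WT replicates 2, that comparison gave −0.0102 for Mmp2, −0.19 for Mmp12, −0.50 for Mmp14 and −0.42 for Timp2, and the interaction 0.51 for Mmp14 and 0.0486 for Timp2. With 1 library left out, the ranges between PKD_FP and PKD_DMSO were −0.98 to 0.63 for Mmp3, −0.43 to 0.34 for Mmp9, −0.11 to 0.13 for Mmp14, −0.35 to 0.56 for Timp1 and −0.77 to 0.0208 for Timp2. Between WT_FP and WT_DMSO they were −0.10 to 0.19 for Mmp3, −0.46 to 0.0444 for Mmp9, −0.11 to 0.16 for Mmp12, −0.45 to 0.60 for Mmp14 and −0.19 to 0.74 for Timp2. For the interaction they were −1.03 to 0.59 for Mmp3, −0.22 to 0.55 for Mmp9 and −0.58 to 0.46 for Mmp14.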
